A study of Mus musculus with 9 samples.

Results

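A mouse epiblast stem cell line kept in the Wnt secretion inhibitor IWP2 was compared with a control line by RNA sequencing. The comparison holds 4 of the 9 libraries of the series, chosen by their labels and file letters: 2 libraries of the line labelled as Wnt inhibited (IWP2 at 5 µM) and 2 of the control line (no inhibitor). Each group has a library with letter B (replicate 1) and a library with letter C (replicate 2), and ratios were formed within a letter, B with B and C with C. Cells of both groups came from dissected epiblast, grew on inactivated mouse embryonic fibroblasts as feeder cells, and were given FGF2 (10 ng/mL) together with Activin A (20 ng/mL). A line from which IWP2 had been taken away after derivation (2 libraries, no inhibitor, same factors) entered the fit to help estimate the spread, and its values are given beside the others. The 3 libraries of a Dkk1 knockout line stayed out of the fit. The inhibitor and the line go together here, so that an effect of IWP2 cannot be told apart from a difference between the lines. The labels do not say whether the libraries of a group came from separate cultures, and p-values then measure only the spread between these libraries.

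Wnt proteins are secreted ligands that must be lipid-modified by Porcupine (Porcn) before the carrier Wls brings them to the cell surface. They bind Frizzled receptors with Lrp5 or Lrp6, beta-catenin is then stabilised, and with Tcf/Lef factors it activates targets such as Axin2, Lef1 and T. IWP2 inhibits Porcn. Epiblast stem cells resemble the epiblast after implantation, depend on Activin/Nodal and FGF signals, and can make their own Wnt ligands, which in culture are associated with streak-like differentiation.

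The libraries held between 10849490 and 17892751 estimated reads over all 9, and 17214 genes passed the filter on low counts in the 6 libraries fitted. Levels are CPM, read counts scaled to library size by TMM, unless TPM (transcript abundance per length) is named, SDs are over the 2 libraries of a group, and log2 fold changes are given ± SE. Genes that define the epiblast were present in all 4 libraries. Pou5f1, a core pluripotency factor, was at 454 and 485 CPM in control (B, C) and at 341 and 1137 CPM in IWP2. Sox2 was at 89.8 and 142 CPM against 99.4 and 164 CPM, Nanog at 174 and 173 CPM against 129 and 302 CPM, and Otx2 at 26.4 and 50.8 CPM against 40.8 and 104 CPM. The trophoblast gene Elf5 stayed at or below 0.191 CPM and Tpbpa had no read in any of the 4. Eomes, which is also used as a trophoblast marker, was at 74.4 and 12.4 CPM in control and 51.8 and 28.6 CPM in IWP2. The whole trophoblast list summed to 113 and 56.7 CPM in control and 84.5 and 56.6 CPM in IWP2. The Y-linked Kdm5d was at 39.8 and 45.5 CPM in control and 44.7 and 41.5 CPM in IWP2. The libraries of IWP2 lay farther apart than those of control, with a median SD of log2 CPM of 0.311 against 0.197, and 14.8% of genes differed at least 2-fold between the IWP2 libraries against 7.13% between the control libraries.

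Few genes passed the test when the libraries were treated as unpaired. With an adjusted p below 0.05, 6 genes were higher and 6 lower in IWP2 (0.0349% of the genes tested in each direction, 0.0697% together), while 1647 had an unadjusted p below 0.05. All 12 went the same way at least 2-fold in both letters, and their libraries did not overlap between groups. Over all genes, the libraries did not overlap in 17.7% in the higher and 17.3% in the lower direction. With the replicate number as a block, which compares the libraries within a letter, 260 genes rose (1.51%) and 188 fell (1.09%), and these 448 included all 12. Each of the 448 had the same sign in both letters, and 310 differed at least 2-fold in both. The ratios come from the same libraries as the test, so the agreement describes the calls and is no separate test of them. Without any test, 283 genes were at least 2-fold higher (1.64%) and 237 at least 2-fold lower (1.38%) in both letters, together 3.02%, and 58% of all genes had the same sign in both. DESeq2 without a block called 265 higher (1.54%) and 157 lower (0.912%), and edgeR over all 9 libraries called 230 higher (1.27%) and 166 lower (0.917%) of 18096 genes. Genes named below from the lists, other than those called without the block and those named for a high level, were chosen after their values were seen, as calls of the blocked fit or widely known members. In bulk RNA, fewer cells of a type and less RNA per cell cannot be told apart, and this holds for every gene group below. Without control replicate 2 the blocked fit called 29 higher and 23 lower, and without IWP2 replicate 1 it called 1250 and 1463, so the number of calls depends on single libraries.

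**Figure D1:**
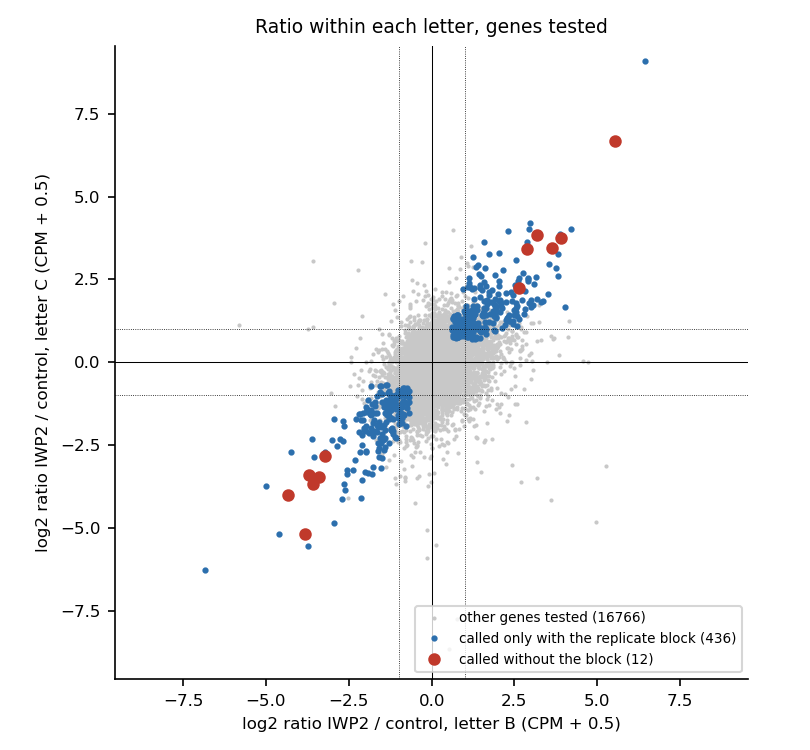
Log2 ratio of IWP2 over control (CPM + 0.5) in letter B on the x axis and in letter C on the y axis, 1 point per gene tested. The 12 red points, called without the block, and the 436 blue points, called with it alone, all lie in the quadrants where both letters agree in sign. Ratios and calls come from the same libraries. Dotted lines mark 2-fold.

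The genes given as markers of this comparison were 2 that were low and 3 that were high in the IWP2 line, and they were picked with earlier results of these data known. Gdf3, a ligand related to Nodal (ENSMUSG00000030117.5, GRCm38 chromosome 6, 122605403 to 122610087, minus strand), was at 45.2 and 33.0 CPM in control and at 1.77 and 1.60 CPM in IWP2. Both IWP2 libraries lay far below both control libraries, and the line after removal of IWP2 was at 45.3 and 33.2 CPM, the level of control. The log2 fold change of Gdf3 was -4.53 ± 0.31 (39.1 ± 8.64 against 1.68 ± 0.116 CPM, SD, n = 2 each), called without the block (edgeR adjusted p = 0.0406) and with it (0.000945). Car4, a membrane-bound carbonic anhydrase (ENSMUSG00000000805.18, chromosome 11, 84957786 to 84966044, plus strand), was at 154 and 84.5 CPM in control and at 0.854 and 0.593 CPM in IWP2. It differed by -7.35 ± 0.80 on the log2 scale, which missed the threshold without the block (edgeR adjusted p = 0.0561) and passed with it (0.00619). Unlike Gdf3, Car4 was also low in the line after removal, at 1.24 and 5.66 CPM. This difference between the markers in the line after removal was not tested.

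Tnnt1, the slow skeletal muscle troponin T (ENSMUSG00000064179.13, chromosome 7, 4504570 to 4516382, minus strand), was at 5.95 and 10.3 CPM in control and at 79.2 and 116 CPM in IWP2. The groups did not overlap, and the change of 3.58 ± 0.34 was called without the block (edgeR adjusted p = 0.046) and with it (0.00133). Dcx, doublecortin, a microtubule protein of migrating neurons (ENSMUSG00000031285.14, chromosome X, 143855842 to 143933311, minus strand), was at 12.9 and 14 CPM in control and at 186 and 87.8 CPM in IWP2. Nnat, neuronatin, an imprinted membrane protein gene of developing brain (ENSMUSG00000067786.16, chromosome 2, 157560078 to 157562522, plus strand), was at 31.3 and 14.2 CPM against 461 and 216 CPM. For both, letter B held the higher IWP2 value, and both IWP2 libraries stood above both control libraries. The log2 fold changes of 3.35 ± 0.39 for Dcx and 3.90 ± 0.52 for Nnat passed with the block alone (edgeR adjusted p = 0.00422 and 0.00342, against 0.0561 and 0.0779 without it). Nnat lies inside Blcap, a gene of the opposite strand, which was not called with the block (log2 fold change -0.19, adjusted p = 0.625). In the line after removal Tnnt1 was at 67.2 and 81.2 CPM, Dcx at 55.5 and 42.2 CPM and Nnat at 158 and 128 CPM, in each case above both control libraries.

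**Figure D2:**
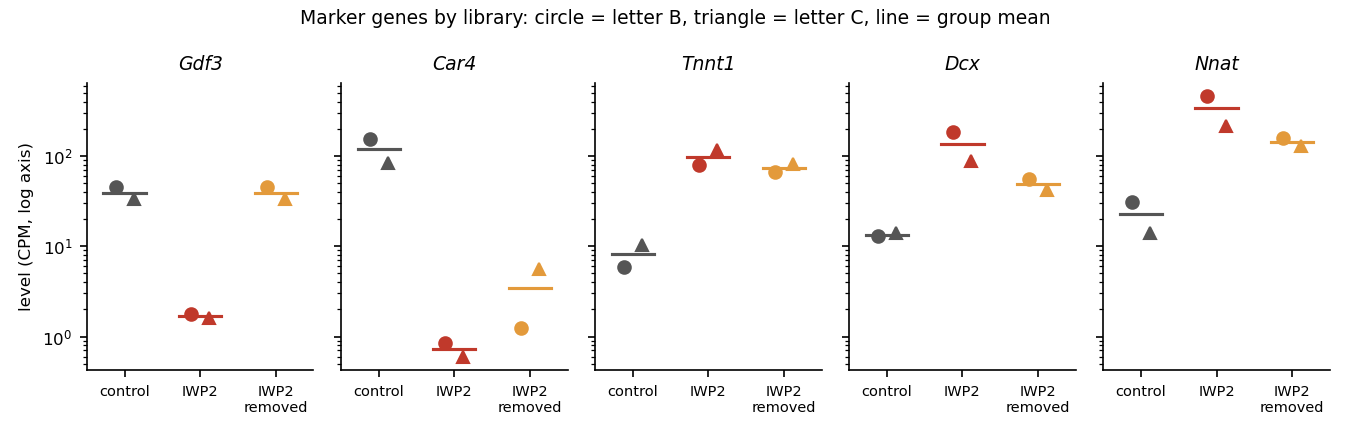
Level in CPM (log axis) of the 5 marker genes in each library of the control line, the IWP2 line and the line after removal of IWP2; circles are letter B, triangles letter C, and lines group means. Gdf3 and Car4 are low and Tnnt1, Dcx and Nnat high in both IWP2 libraries, and Gdf3 alone is at the control level after removal.

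The transcripts behind these genes differed in how clear they were. Gdf3 came almost wholly from the protein-coding transcript Gdf3-201, with 92.4% and 91.9% of the gene's TPM in the control libraries and 100% in both IWP2 libraries. Nnat-202 held 91.4% and 63.1% of Nnat in control and 75.3% and 74.9% in IWP2. For Tnnt1 the retained-intron transcript Tnnt1-212 held 45.8% and 10.3% in control, at 4.92 and 1.27 TPM, and 0.651% and 0.478% in IWP2, at 0.890 and 0.744 TPM. The protein-coding Tnnt1-206 went from 3.32 and 4.31 TPM to 43.1 and 49.3 TPM. These shares are the estimates of the authors for each transcript and were not tested.

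Besides Gdf3 and Tnnt1, 5 genes fell and 5 rose without the block. Acsf2, an acyl-CoA synthetase of fatty acid metabolism (chromosome 11, 94557102 to 94601871, minus strand), was at 34.6 and 58.4 CPM in control and 1.99 and 1.13 CPM in IWP2 (log2 fold change -4.89 ± 0.44, edgeR adjusted p = 0.046). Zfp984, a zinc finger protein gene on chromosome 4, was at 17.3 and 15.8 CPM against 1.42 and 1.78 CPM (-3.36 ± 0.33, adjusted p = 0.046). Xlr3b, of a family of X-linked lymphocyte-regulated genes, was at 14.3 and 11.8 CPM against 0.627 and 0.653 CPM (-4.33 ± 0.43, adjusted p = 0.046). Gal, which encodes the neuropeptide galanin (chromosome 19, 3409915 to 3414544, minus strand), was at 3.11 and 2.42 CPM in control and 26.0 and 30.6 CPM in IWP2 (3.36 ± 0.31, adjusted p = 0.046). The levels of Acsf2 and Xlr3b in the line after removal were close to those of IWP2, at 2.17 and 1.80 CPM and at 0.621 and 0.901 CPM. Gal was at 7.57 and 6.24 CPM there, between the groups, and Zfp984 at 7.76 and 8.23 CPM. The Xlr3 and zinc finger families hold near-identical copies, and reads may have been split between them. The other genes called were Pcdha7 and Pcdha11, lower, the long noncoding RNA Gm42047, higher, and the pseudogenes Gm5436, Gm4322 and Nlrp5-ps, higher. Gm42047 lies inside the span of Gm20388, a gene model of the same strand, and reads of the overlap could be assigned to either. Gm4322 and Nlrp5-ps had no read in either control library and were at least 325-fold and at least 58.5-fold higher, against a floor of 3 reads over the control group. Gm5436 had 2 reads in the control group and 213 in IWP2. Reads of these pseudogenes may also have been shared with near-identical copies, and the floor covers counting error only.

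Genes of neuronal differentiation were higher in the IWP2 line, although none of the list passed without the block. Of 25 members tested, 12 rose and 1 fell with the block, which is 52% of the list against 2.6% of all genes tested. The median log2 fold change of the list was 1.53, against 0.01 over all genes. At least 2-fold in both letters were 12 members higher and 1 lower (1.64% and 1.38% over all genes). In 20 of 25 both IWP2 libraries lay above both control libraries (17.7% over all genes). DESeq2 without a block called 14 higher and 1 lower (1.54% and 0.912% over all genes). Dcx and Nnat are among the 12 and were given as markers, so that the list is not independent of the choice of the comparison. Without control replicate 2 the blocked fit called 3 members higher, and without IWP2 replicate 2 it called 19.

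The transcription factors of the list were measured at low levels. Nhlh1 and Nhlh2, basic helix-loop-helix factors of newborn neurons, were at 0.549 and 1.85 CPM and at 2.29 and 4.02 CPM in control. In IWP2 they were at 7.4 and 13 CPM and at 19 and 19.5 CPM. Both rose with the block, by 3.12 ± 0.38 (edgeR adjusted p = 0.0114) and 2.66 ± 0.30 (0.0101) on the log2 scale. Neurod4, a related factor, rose from 0.274 and 1.59 CPM to 2.68 and 7 CPM (2.46 ± 0.44 with the block, adjusted p = 0.0362). The proneural factors Neurog1 and Neurog2, counted in the list of neural ectoderm, were at or below 0.956 CPM in control and reached 2.28 and 4.69 CPM and 1.99 and 3.68 CPM in IWP2. With the block they rose by 2.87 ± 0.55 (adjusted p = 0.0444) and 3.00 ± 0.54 (0.0377). Neurod1 and Isl1 were higher in both letters and were not called (adjusted p with the block 0.232 and 0.143).

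Genes of the neuronal cytoskeleton and of axon growth made up most of the rest. Tubb3, the neuronal beta-tubulin, was at 15.9 and 59.3 CPM in control and 148 and 225 CPM in IWP2, and rose by 2.56 ± 0.30 with the block (edgeR adjusted p = 0.0103). The ratio between its libraries was larger in control than in IWP2, and without the block it did not pass the threshold (adjusted p = 0.349). Tubb3 lies inside the span of Gm20388, a gene model of the same strand, which was not called with the block (log2 fold change 0.06, adjusted p = 0.959). Reads of the overlap could be assigned to either. Gap43, a growth cone protein, was at 25.3 and 29.6 CPM against 75.5 and 83.0 CPM, Ina, an intermediate filament of neurons, at 22.8 and 15.0 CPM against 77.2 and 66.9 CPM, and Stmn3, a tubulin-binding stathmin, at 3.66 and 6.63 CPM against 23.4 and 35.2 CPM. All 3 rose with the block (adjusted p = 0.0101, 0.0227 and 0.00551). Crmp1, of the collapsin response mediators, was at 38.1 and 37.7 CPM against 93.3 and 87.1 CPM, and the RNA-binding Elavl2 at 16.6 and 16.5 CPM against 39.3 and 27.2 CPM. These rose by 1.25 ± 0.21 and 0.98 ± 0.19 with the block (adjusted p = 0.0289 and 0.0473).

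The neurofilament genes went apart. Nefl, the light chain, was at 26.9 and 23.8 CPM in control and 53 and 71.0 CPM in IWP2, and rose with the block (1.29 ± 0.21, edgeR adjusted p = 0.0285). Nefm, the medium chain, was at 11.9 and 13.5 CPM against 3.30 and 5.04 CPM, and fell (-1.63 ± 0.26, adjusted p = 0.0262). In the annotation Nefl (chromosome 14, 68083863 to 68089095, plus strand) lies inside the span of Nefm (68082590 to 68124846, minus strand), and the sources used here do not say how the counting used strand, so reads of these 2 genes may have been mixed. Other members were not called. Map2, of neuronal dendrites, was at 49.5 and 56.9 CPM against 185 and 72.6 CPM, with a log2 ratio of 1.89 in letter B and 0.35 in letter C. Mapt, the axonal protein tau, was at 2.01 and 4.02 CPM against 43.9 and 10.3 CPM (adjusted p with the block 0.075).

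**Figure D3:**
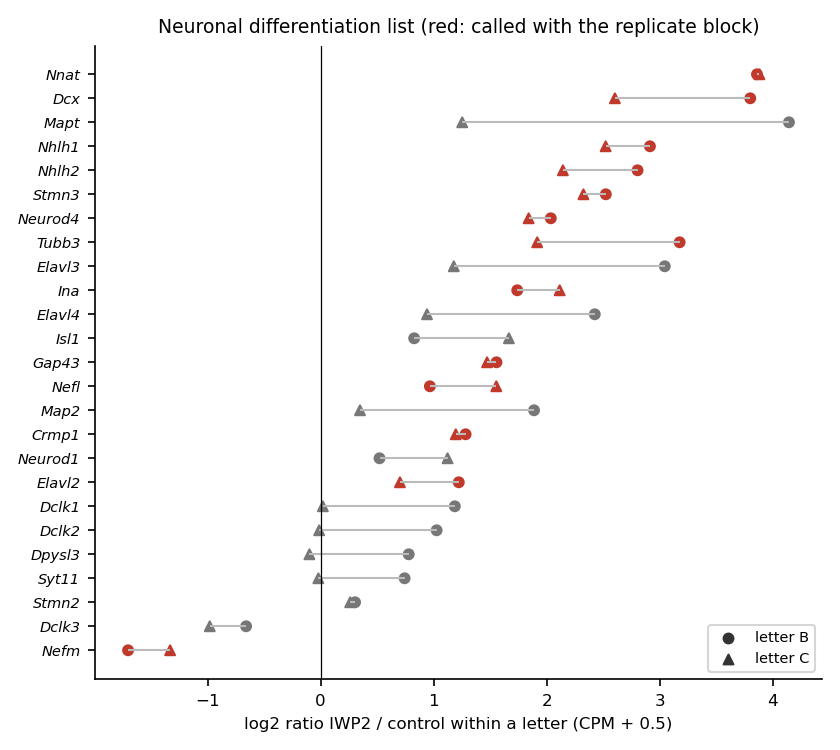
Log2 ratio of IWP2 over control (CPM + 0.5) within letter B (circles) and within letter C (triangles) for the 25 genes of the neuronal differentiation list, ordered by fold change; red marks the 13 genes called with the block. Most members lie to the right of 0 in both letters and Nefm and Dclk3 to the left; Mapt, Map2 and Elavl3 are much higher in letter B than in letter C.

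The line after removal was read at some of the same genes. Tubb3 was at 42.7 and 120 CPM there, Gap43 at 25.2 and 36.9 CPM, Stmn3 at 6.15 and 13.2 CPM, Nhlh2 at 8.69 and 16 CPM and Nefm at 11.8 and 20.6 CPM. With B and C pooled, Gap43, Tubb3, Stmn3 and Nefm overlapped the control range there. Within a letter, Tubb3 and Stmn3 were above control in both B and C (control at 15.9 and 59.3 CPM, and at 3.66 and 6.63 CPM). Gap43 and Nefm were close to control in B (25.3 and 11.9 CPM in control) and above it in C (29.6 and 13.5 CPM). Nhlh2 stood above both control libraries. Ina (35.9 and 57.9 CPM), Crmp1 (50.2 and 78.0 CPM), Elavl2 (29.8 and 27.0 CPM) and Nefl (36.4 and 29.2 CPM) also stood above both control libraries, as Dcx and Nnat did. These levels were not tested against either group.

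Further genes of neurons outside the list were among those with the largest ratios seen in both letters. They were chosen after their values were seen, from the 25 genes in which the smaller of the 2 letter ratios was largest. That ranking took genes tested with a mean of at least 5 CPM in the higher group, passing over predicted genes and pseudogenes. Robo3, an axon guidance receptor, was at 2.29 and 3.44 CPM in control and 32.1 and 30.3 CPM in IWP2. Cntn2, an axonal adhesion protein, was at 15.3 and 30.4 CPM against 140 and 184 CPM. Insm1, a factor of neuronal and endocrine progenitors, was at 2.65 and 3.83 CPM against 16.2 and 18.4 CPM. Celf3, Gprin1, Dlgap3, Nxph4, Unc79 and Lamp5, which are also expressed in neurons, had smaller log2 ratios between 2.02 and 2.68. The direction of all these genes was fixed by the choice. The same 25 hold Tnnt1, and Palmd, Col4a6 and Rpl34, named further below, also had large ratios in both letters. Of the early neural genes Sox1, Pax6 and Nes, none was called. Sox1 was at 72.7 and 96.8 CPM in control and 76.1 and 71.3 CPM in IWP2, Pax6 at 4.67 and 7.4 CPM against 6.78 and 15.7 CPM, and Nes at 302 and 186 CPM against 278 and 136 CPM. Of the 32 neural ectoderm genes tested, 2 rose with the block and 0 fell (6.25% against 2.6% of all genes). The median of this list was 0.43, and in 12 members both IWP2 libraries lay above both control libraries (17.7% over all genes). DESeq2 called 0 of them in either direction (1.54% higher and 0.912% lower over all genes). At an unadjusted p below 0.05 without the block there were 9 higher and 2 lower (1019 and 628 of all 17214 genes).

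Promoter windows of genes from these results are shown so that the motif matches can be read in place. The windows are those of RefSeq on GRCm38.p6, from 250 bases before to 50 after a start, 5′ to 3′ on the gene's strand. Capitals mark matches to CAGATG or its reverse complement CATCTG, an E-box bound by proneural factors, and to CTTTGA or its reverse complement TCAAAG, the core that Tcf/Lef factors recognise. Nhlh1 (chr1:172057547-172057846, minus strand), Nhlh2 (chr3:102009895-102010194, plus strand) and Stmn3 (chr2:181314451-181314750, minus strand) are neuronal genes that rose with the block, and Acsf2 (chr11:94601737-94602036, minus strand) fell.
Nhlh1: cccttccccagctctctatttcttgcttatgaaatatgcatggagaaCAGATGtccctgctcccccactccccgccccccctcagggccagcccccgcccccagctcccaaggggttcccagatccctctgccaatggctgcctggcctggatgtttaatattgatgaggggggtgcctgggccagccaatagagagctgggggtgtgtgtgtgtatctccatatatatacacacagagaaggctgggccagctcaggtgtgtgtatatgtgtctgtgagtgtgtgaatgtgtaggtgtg
Nhlh2: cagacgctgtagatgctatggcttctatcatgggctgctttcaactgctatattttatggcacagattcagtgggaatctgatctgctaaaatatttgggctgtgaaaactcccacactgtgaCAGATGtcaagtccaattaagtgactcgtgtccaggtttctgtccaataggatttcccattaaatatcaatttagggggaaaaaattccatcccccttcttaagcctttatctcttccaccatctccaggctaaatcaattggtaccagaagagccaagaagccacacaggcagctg
Stmn3: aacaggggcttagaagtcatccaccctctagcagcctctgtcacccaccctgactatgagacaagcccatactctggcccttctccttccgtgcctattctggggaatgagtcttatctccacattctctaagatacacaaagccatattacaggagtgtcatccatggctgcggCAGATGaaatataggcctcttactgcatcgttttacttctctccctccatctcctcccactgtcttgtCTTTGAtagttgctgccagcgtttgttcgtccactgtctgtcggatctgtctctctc
Acsf2: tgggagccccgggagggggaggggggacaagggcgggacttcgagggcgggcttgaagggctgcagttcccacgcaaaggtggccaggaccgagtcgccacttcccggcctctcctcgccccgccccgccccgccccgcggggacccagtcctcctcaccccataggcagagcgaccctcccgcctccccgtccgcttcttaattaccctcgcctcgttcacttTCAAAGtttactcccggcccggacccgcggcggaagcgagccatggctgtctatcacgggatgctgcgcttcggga
The CAGATG matches start at base 48 of the Nhlh1 window, 124 of Nhlh2 and 176 of Stmn3, and the CTTTGA matches at base 244 of Stmn3 and 225 of Acsf2. Such matches were common everywhere. CAGATG on either strand was in 6 of 30 windows of the neuronal list (20%), in 41 of 270 windows of genes that rose with the block (15.2%), in 12% of the windows of all genes tested and in 17.2% of all windows. CTTTGA was in 25 of 270 windows of genes that rose (9.26%), in 18 of 123 windows of genes that fell (14.6%), in 12% over all genes tested and in 16% of all windows. Of the 12 genes called without the block, 5 had a window, and that of Acsf2 alone held CTTTGA. A match describes the letters in a window and is no evidence of binding.

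Calls among transcripts of the Wnt pathway itself are given beside the 2.6% of all genes called with the block. Porcn, the protein that IWP2 inhibits (chromosome X, 8193848 to 8206525, minus strand), was at 13.8 and 17.7 CPM in control and 12 and 17.4 CPM in IWP2. The groups overlapped (log2 fold change -0.10 ± 0.33, edgeR adjusted p = 0.967), and the sign reversed without control replicate 2 and without IWP2 replicate 1. Its carrier Wls was at 285 and 239 CPM against 245 and 167 CPM. Among the ligands, Wnt8a was at 102 and 46.1 CPM against 73.9 and 53.5 CPM, Wnt3, which is required for the primitive streak, at 31.3 and 10.6 CPM against 19.7 and 12.5 CPM, and Wnt5a, a ligand that mostly acts without beta-catenin, at 60.6 and 45.7 CPM against 57.0 and 20.4 CPM. Of 15 ligands and of 13 genes of secretion and R-spondin signalling, 0 were called with or without the block or by DESeq2. None of them had an unadjusted p below 0.05 without the block. At 2.6% over all genes, 0 calls in lists of this size do not set them apart. Transcript levels do not measure the secretion that Porcn serves.

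Of 15 receptors, 0 were called without the block and 1 fell with it (6.67% of the list against 2.6% of all genes). Fzd6, a Frizzled receptor, was at 42.1 and 37.2 CPM in control and 25 and 14.1 CPM in IWP2 (-1.07 ± 0.21 with the block, edgeR adjusted p = 0.0437). The co-receptor Lrp6 was at 128 and 118 CPM against 122 and 75.2 CPM, and Fzd2 at 91.7 and 113 CPM against 86.2 and 106 CPM. Of 21 genes of beta-catenin and the Tcf/Lef factors 0 were called in either fit or by DESeq2, against 2.6% of all genes with the block. None had an unadjusted p below 0.05 without the block, and the list had a median of 0.07. Ctnnb1, beta-catenin itself, was at 1400 and 1332 CPM against 1450 and 1223 CPM.

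Target genes of the pathway were mixed. Of 23 tested, 0 passed without the block, and 1 rose and 1 fell with it (8.7% of the list against 2.6% of all genes). The median was -0.31. At an unadjusted p below 0.05 without the block there were 1 higher and 2 lower (1019 and 628 of all 17214 genes). DESeq2 called 1 higher and 0 lower (1.54% and 0.912% over all genes). Axin2, the most widely used target, was at 39.5 and 35.8 CPM in control and 35.7 and 22.7 CPM in IWP2 (-0.37 ± 0.27, edgeR adjusted p = 0.79), with the upper IWP2 library just under the lower control library. Lef1 was at 9.79 and 10.0 CPM against 8.26 and 10.6 CPM, and Nkd1, a feedback inhibitor, at 30.2 and 32.4 CPM against 34.6 and 25.8 CPM. T, the streak gene Brachyury, was higher in letter B (106 against 139 CPM) and lower in letter C (54.6 against 29.0 CPM). The genes called with the block were Tnfrsf19, a receptor of the TNF family, at 102 and 71.3 CPM against 61.6 and 35.0 CPM (-0.88 ± 0.16 with the block, adjusted p = 0.0351), and Sp8, a zinc finger factor, at 28.8 and 23.8 CPM against 46.7 and 64.0 CPM (1.06 ± 0.21, adjusted p = 0.0454).

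Secreted antagonists had a lower median and no call. Of 19 tested, 0 were called in either fit or by DESeq2, against 2.6% of all genes with the block. At an unadjusted p below 0.05 without the block there were 1 higher and 4 lower (1019 and 628 of all 17214 genes), and the median was -0.57. In 8 members both IWP2 libraries lay below both control libraries, against 17.3% of all genes. Dkk1, which blocks Lrp5 and Lrp6 and is itself a target, was at 6.95 and 9.18 CPM in control and 2.96 and 0.356 CPM in IWP2. Its IWP2 libraries differed from each other by more than those of control, and the log2 fold change of -2.27 ± 0.84 was not called (edgeR adjusted p = 0.459, with the block 0.153). Sfrp1 was at 109 and 143 CPM against 75.6 and 84.9 CPM, and Dkk3 at 41.8 and 50.6 CPM against 25.9 and 15.3 CPM (adjusted p with the block 0.112 and 0.055). Of 12 genes of planar polarity, a branch that works without beta-catenin, Daam1 rose and Vangl1 fell with the block (0.94 ± 0.15 and -1.42 ± 0.24, adjusted p = 0.0265 and 0.0313). That is 16.7% of the list against 2.6% of all genes.

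**Figure D4:**
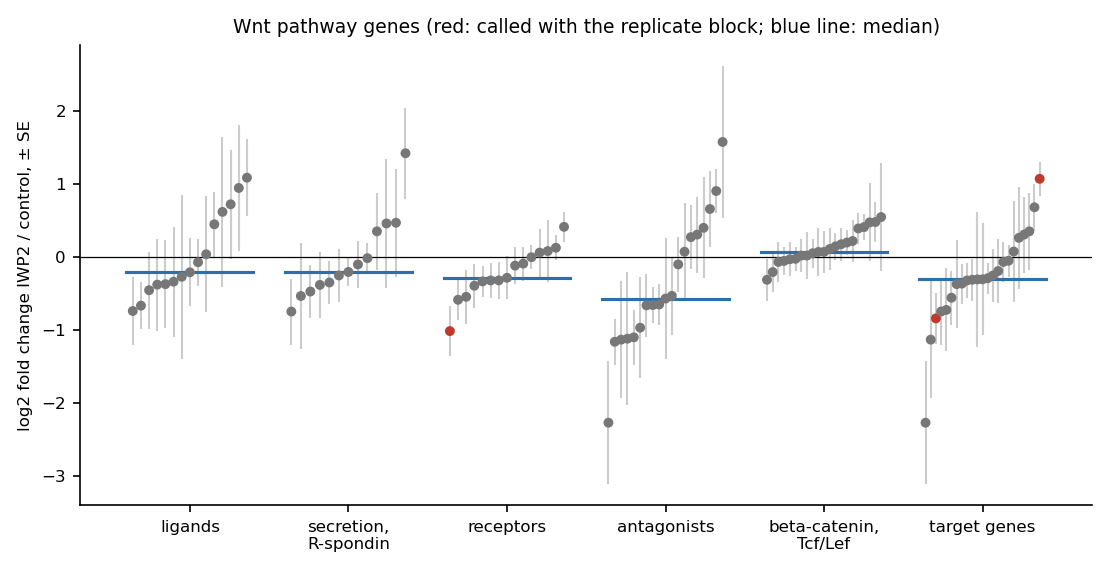
Log2 fold change of IWP2 against control with its SE for every tested gene of 6 Wnt lists, ordered within each list; blue lines are list medians and red points the genes called with the block. The 3 red points are Fzd6, Tnfrsf19 and Sp8, and the medians run from -0.57 for the antagonists to 0.07 for beta-catenin and Tcf/Lef.

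Calls in the lists of pluripotency and Activin/Nodal genes are given beside the share over all genes. In the list of Nodal/Activin signalling Gdf3, a given marker, was the 1 call among 20 genes, with or without the block. That is 5% of the list, against 2.6% of all genes with the block and 0.0697% without it. Nodal was at 57.7 and 35.6 CPM against 32.8 and 78.9 CPM, and Lefty1, a Nodal inhibitor and target, at 637 and 548 CPM against 690 and 1333 CPM, so Nodal was lower in letter B and higher in letter C, and Lefty1 was higher in both, by more in C. Of 13 core pluripotency genes Trim71, an RNA-binding regulator, fell with the block (83.0 and 79.1 against 31.3 and 49.1 CPM, edgeR adjusted p = 0.0433). That is 7.69% of the list against 2.6% of all genes. Of 21 primed epiblast genes Zic5 rose (36.6 and 41.4 against 57.1 and 105 CPM, adjusted p = 0.0473), and Gdf3 and Car4 fell. The calls are 14.3% of this list against 2.6% of all genes, but Gdf3 and Car4 were given as markers. Fgf5, a marker of the primed state, was at 84.3 and 25.6 CPM against 46.8 and 15.1 CPM (adjusted p = 0.0727). Of 12 naive pluripotency genes and of 13 primitive streak genes 0 were called with the block, against 2.6% of all genes. Without the block the naive list had 1 gene higher and 2 lower at an unadjusted p below 0.05 and the streak list had 0, and DESeq2 called 0 in both.

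Genes of the node, of endoderm and of surface ectoderm had the lowest medians, at -0.96 (15 genes), -0.94 (10) and -1.0 (15). With the block there was 1 call between them (6.67% of the surface ectoderm list against 2.6% of all genes). That call was Tfap2c, a factor of surface ectoderm, trophoblast and germ cells, which fell from 6.40 and 9.44 to 1.14 and 2.49 CPM (-2.19 ± 0.34 with the block, edgeR adjusted p = 0.024). Much of the difference was in letter C. In letter B, Shh, the signalling ligand of the notochord, was at 49.1 CPM against 46.5 CPM, and in letter C at 59.7 against 5.28 CPM. Foxa2, a factor of node and endoderm, was at 54.2 against 34.2 CPM in letter B and 46.8 against 8.78 CPM in letter C. Cdh1, E-cadherin, was at 35.9 against 15.9 CPM in B and 25.2 against 3.20 CPM in C. None of these 3 was called (adjusted p with the block 0.227, 0.092 and 0.093).

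Among the Hox genes, which pattern the body axis, Hoxa2, Hoxa3 and Hoxa4 rose and Hoxa9 fell. With the block 5 of 32 tested rose and 1 fell (1.51% and 1.09% over all genes), and none was called without it. Hoxa2 was at 8.87 and 8.03 CPM in control and 19.9 and 48.9 CPM in IWP2, Hoxa3 at 11.8 and 7.91 CPM against 28 and 38.6 CPM, and Hoxa4 at 5.76 and 5.93 CPM against 17.4 and 16.7 CPM. Their log2 fold changes with the block were 1.91 ± 0.32, 1.76 ± 0.27 and 1.55 ± 0.24 (edgeR adjusted p = 0.0307, 0.0229 and 0.0246). Hoxa9 fell from 7.13 and 4.72 to 1.03 and 0.178 CPM (-3.46 ± 0.49, adjusted p = 0.0198), and its neighbours Hoxa7 and Hoxa10 lay in the same direction without a call (0.057 and 0.053). In the Hoxb cluster Hoxb2 and Hoxb9 rose (1.09 ± 0.22 and 2.07 ± 0.26, adjusted p = 0.0473 and 0.0123). Hoxa4 lies inside the span annotated for Hoxa3, and reads of the overlap could be assigned to either.

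Imprinted genes, which are expressed from 1 parental copy, were called in both directions. Of 35 tested 3 rose and 2 fell with the block, which is 14.3% of the list against 2.6% of all genes. H19, a noncoding RNA of the Igf2 locus (chromosome 7, 142575529 to 142578143, minus strand), fell from 2242 and 3171 to 657 and 358 CPM (-2.41 ± 0.35 with the block, edgeR adjusted p = 0.0209). Igf2 was at 1201 and 1674 CPM against 1074 and 757 CPM and was not called (0.213). Meg3 and Mirg, noncoding RNAs of the Dlk1 locus on chromosome 12, rose from 422 and 378 to 753 and 673 CPM and from 29.7 and 30.9 to 54.2 and 78.0 CPM (adjusted p = 0.0465 and 0.0268). Rian, between them, was at 970 and 841 CPM against 1275 and 1394 CPM (0.144). Dlk1 itself was at 70.3 and 104 CPM against 103 and 86.9 CPM, with opposite directions in the letters. Zim1, at the Peg3 locus, fell from 20.4 and 22.8 to 6.72 and 3.8 CPM (adjusted p = 0.0227), and Nnat is the third that rose. Nnat was given as a marker, so the share of this list is not independent of that choice. In the line after removal Meg3 was at 346 and 268 CPM and H19 at 998 and 1355 CPM.

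Clustered protocadherins, cell surface proteins whose alternative first exons are chosen cell by cell in neurons, were called mostly in the lower direction. Of 51 tested 2 fell without the block, and with it 9 fell and 2 rose, which is 21.6% of the list against 2.6% of all genes (1.09% lower). Pcdha7 was at 8.14 and 8.86 CPM in control and 0.228 and 0.237 CPM in IWP2 (-5.14 ± 0.47, edgeR adjusted p = 0.046). Pcdhgb8 was at 17.2 and 17.5 CPM against 0.228 and 0 CPM, and Pcdhga3 at 26.6 and 42.5 CPM against 1.54 and 0.415 CPM. Pcdha4 and Pcdhgb6 rose, from 6.40 and 6.76 to 29.4 and 22.3 CPM and from 18.2 and 25.3 to 111 and 54.9 CPM. In the line after removal Pcdhgb8 was at 0.373 and 0.708 CPM and Pcdhga3 at 2.05 and 0.450 CPM, below both control libraries in each case, and Pcdha7 was at 2.92 and 3.86 CPM. Members of a cluster share constant exons, so the split of reads between them rests on the estimation of the authors, and these values are uncertain.

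Retinoic acid is made and broken down by enzymes that set its local level. Of 15 genes of this pathway 2 fell with the block, which is 13.3% against 2.6% of all genes (1.09% lower). Cyp26a1, which degrades retinoic acid, fell from 15.7 and 24.9 to 3.65 and 3.50 CPM (-2.48 ± 0.28, edgeR adjusted p = 0.0101), and Rdh10, which makes its precursor, from 40.4 and 21.1 to 17.9 and 9.31 CPM (-1.18 ± 0.18, adjusted p = 0.0232). The binding protein Crabp1 was at 120 and 130 CPM against 257 and 984 CPM, a larger ratio in letter C than in letter B, and was not called (0.0606). Of 11 carbonic anhydrases 27.3% were called with the block, against 2.6% of all genes. Car4, given as a marker, is among them, so the share is not independent of that choice. Car2 fell with Car4 (154 and 64.6 against 40.2 and 29.0 CPM, adjusted p = 0.0196), and Car14 rose (46.1 and 67.7 against 78.5 and 181 CPM, 0.0362). Of 24 mesoderm genes tested 2 rose and 0 fell with the block (8.33% against 2.6% of all genes), and the median was 0.02. In 6 members both IWP2 libraries lay above both control libraries and in 6 below (17.7% and 17.3% over all genes). Six2, of kidney progenitors and head mesenchyme, rose from 3.20 and 2.17 to 17.9 and 41.3 CPM (edgeR adjusted p with the block 0.0114). Meox1, of somites, rose from 13.4 and 5.67 to 40.7 and 21.6 CPM (0.0105). Tnnt1, given as a marker, was the 1 call among 19 genes of sarcomere and troponin (5.26%, against 2.6% of all genes with the block). Its close relative Tnnt2 was at or below 0.640 CPM in control and at 0.513 and 3.68 CPM in IWP2. Kit, the stem cell factor receptor, rose from 25.2 and 26.1 to 58.8 and 49.9 CPM (1.08 ± 0.16, adjusted p = 0.0227).

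**Figure D5:**
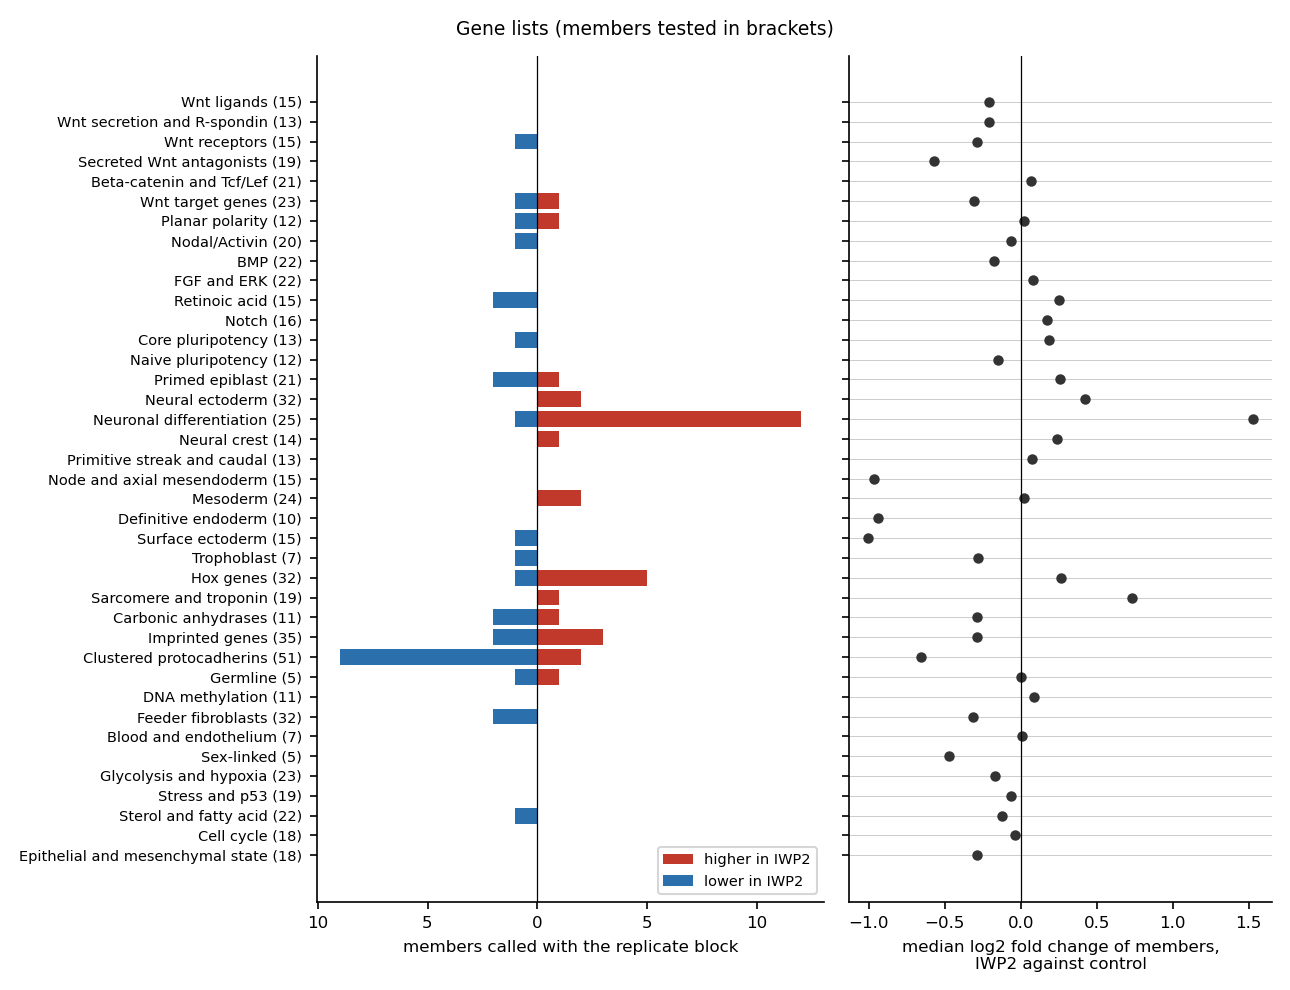
Members called with the block (left, higher in red and lower in blue) and median log2 fold change of the members tested (right) for 39 gene lists, with the number tested in brackets. Neuronal differentiation has 12 higher members and the highest median, and clustered protocadherins have 9 lower members.

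Markers of other cells were read in the same libraries. Feeder fibroblasts are present in every culture, and their 32 marker genes summed to 8073 and 8122 CPM in control and 7001 and 5125 CPM in IWP2, with a median log2 fold change of -0.31. Lox and Postn, genes of collagen cross-linking and matrix, fell with the block (209 and 212 against 110 and 113 CPM, and 139 and 182 against 69.9 and 99.3 CPM, edgeR adjusted p = 0.0265 and 0.0236), and 0 of 32 rose. The calls are 6.25% of the list against 2.6% of all genes. The part that the lower summed level of the feeder genes played in the other calls was not tested. The defining fibroblast genes Col1a1 and Col1a2 were at 913 and 1329 CPM and 969 and 1235 CPM in control, and at 902 and 845 CPM and 866 and 782 CPM in IWP2. Blood and vessel genes summed to 34.2 and 17.0 CPM in control and 27.7 and 15.8 CPM in IWP2. In lists of the cell cycle, of glycolysis and hypoxia, of stress and p53, of Notch, BMP and FGF signalling and of DNA methylation, 0 genes were called by edgeR with or without the block. Over all genes the share with the block was 2.6%. DESeq2 called 1 gene higher in each of the FGF and DNA methylation lists and 0 in the other 5. At an unadjusted p below 0.05 without the block, these 7 lists held between 0 and 3 genes each.

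Genes with the largest lower ratios in both letters were again chosen after their values were seen, by the smaller ratio. The ranking took genes tested with a mean of at least 5 CPM in the higher group, passing over predicted genes and pseudogenes. Cyp2b23, of a family of drug-metabolising enzymes, was at 46.2 and 16.5 CPM in control and 0.968 and 0.771 CPM in IWP2. Cyp27a1, a sterol hydroxylase, was at 5.67 and 12.5 CPM against 0.456 and 0.237 CPM, and Xlr3a, of the same family as Xlr3b, at 6.22 and 6.70 CPM against 0.228 and 0.593 CPM. Fgfbp1, which carries FGFs in the matrix, was at 12.8 and 4.46 CPM against 1.14 and 0.475 CPM. In the line after removal these 4 were at 2.17 and 0.386, 0.186 and 0.129, 0.186 and 0.515, and 2.17 and 0.515 CPM, near the IWP2 values. Olfr784, of the odorant receptor family, was at 35.2 and 44.6 CPM against 7.86 and 9.43 CPM, and at 35.2 and 43.5 CPM after removal, the level of control.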

How the data were processed

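RNA of mouse epiblast stem cells was sequenced from poly(A)-selected stranded libraries, per the labels' protocols. The authors deposited, for each library, estimated counts and TPM per transcript from Salmon, and DESeq2 and edgeR are also named, per the submitters' processing notes, which give no versions. Transcripts were summed to 52609 genes by Ensembl identifier with the GENCODE vM21 annotation of mouse build GRCm38, which held 133399 of the transcripts; the sources used here do not name the build or strand setting behind the counts. Of 133618 transcripts the other 219, with 0.117% to 0.161% of the reads, matched no gene and were left out. Estimated counts were rounded to whole numbers. The libraries held 10849490 and 15618539 reads (control), 16885451 and 17892751 (IWP2), and 15816711 and 16001561 (line after removal).

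Testing used the quasi-likelihood test of edgeR 4.0.16 in R 4.3.3, with TMM scaling and the filterByExpr filter, on 6 libraries in 3 groups, with Benjamini-Hochberg adjustment over 17214 genes and a threshold of 0.05. The main fit had no block. Whether the letters pair the libraries was checked by correlating the C minus B deviations of the groups across genes, which gave 0.392 for control with IWP2, 0.559 for control with the line after removal and 0.578 for IWP2 with that line. The letters come from the file names and go with the replicate numbers of the labels. All 3 correlations are above 0.1, so the pairing was taken to hold, and results with the replicate number as a block are printed beside the others. The number of genes the block calls was already known when this was decided. The difference between main and blocked fit is large, so the fit is named with each call.

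Letter ratios are log2 ratios of CPM + 0.5. A group with no reads was set to a floor of 3 reads over the group. Such floors cover counting error only. On simulated counts with known changes, 60.6% of genes changed 4-fold and 7% of those changed 2-fold were recovered without the block (16789 genes), and 55% and 5% with it (16757 genes). False calls were 7 of 74 and 4 of 64. Both simulations drew counts with the dispersion of the fit without the block, and the blocked one added a letter effect. That dispersion already holds the real differences between letters, so the blocked values cannot give the recovery or false calls of the real blocked fit.

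The members, the 40 gene lists and the tests were chosen with earlier results of these data known. Named genes are the markers with Dkk1 and Porcn, up to 3 called members of each list (or 2 with the highest level), up to 4 Wnt members with the highest level, and up to 12 genes in each direction by fold change. Others named were chosen after their values were seen. Alternatives were other scalings and filters, DESeq2 1.42.0, limma 3.58.1 on log2(TPM + 1), other sets of libraries, a transcript length offset and leaving out each library. Promoter windows came from RefSeq on GRCm38.p6, matched by symbol, for 12033 of 17198 symbols tested.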

Additional observations from a re-analysis of the deposited data

How the results depend on the processing

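Without the block, the 6 higher and 6 lower calls became 230 and 166 with all 9 libraries, 0 and 1 with the 4 libraries compared alone, 265 and 157 with the DESeq2 Wald test, and 431 and 287 with no filter on low counts (404 and 270 of them seen in both letters). They became 1 and 2 with a transcript length offset, 260 and 188 with the replicate block, and with limma on log2(TPM + 1) 10 higher. On log2(TPM + 0.1) 9 higher and 5 lower were called, a share of 64.3% higher. Leaving out 1 library gave 0 to 10 higher and 0 to 13 lower, and 0 to 10 and 0 to 12 seen in both letters.

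The paired fit, which has the replicate block, called 260 higher and 188 lower. It called 6 and 6 with no replicate block, 537 and 423 with the DESeq2 Wald test, 943 and 751 with no filter, 15 and 20 with limma on log2(TPM + 1), and 47 and 43 with the length offset. Leaving out 1 library gave 29 to 1250 higher and 23 to 1463 lower, with 340 lower without control replicate 1, and 909 higher and 365 lower without IWP2 replicate 2. Of the 448 calls, 290 were made again without control replicate 1, 47 without control replicate 2, 447 without IWP2 replicate 1 and 436 without IWP2 replicate 2. The lone library left in a group was then assumed to vary like those of the other groups.

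The 12 higher members of neuronal differentiation in the paired fit became 0 with no replicate block, 2 with limma, 7 with the length offset and 3 to 19 without 1 library. The fold change of Porcn reversed to 0.10 without control replicate 2 and to 0.15 without IWP2 replicate 1, and was -0.38 without IWP2 replicate 2. Of 255 values of single genes under alternatives, 164 kept their direction and side of the threshold, 16 gained a call, 73 lost it and 2 reversed. The causes were not tested. With 2 libraries a group and a recovery of 2-fold changes of 7% in the simulation without the block, a gene without a call may still differ.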

Other observations

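The genes with the largest ratios between the letters within a group, among those averaging 20 CPM or more, were picked for that ratio, and their values are given as a description. Asns, which makes asparagine, was at 122 and 463 CPM in control (B, C), at 75.7 and 774 CPM in IWP2 and at 113 and 406 CPM in the line after removal. Trib3 was at 7.41 and 50.4 CPM in control and at 4.44 and 131 CPM in IWP2, Chac1 at 8.51 and 46.3 CPM against 6.49 and 91.8 CPM, and Atf5 at 56.3 and 198 CPM against 60.5 and 645 CPM. All 4 are known targets of the stress factor Atf4, and in each the C library was higher in all 3 groups, with a log2 ratio of C over B from 1.18 to 4.73. Bnip3 and Ddit4, genes induced in hypoxia, were likewise higher in C. The immediate early gene Fosb was at 66.0 and 7.65 CPM in control and at 54.2 and 11.7 CPM in IWP2, and Ptgs2 at 55.4 and 9.25 CPM against 37.6 and 3.44 CPM, both lower in C. Peg10, an imprinted gene, was at 411 and 199 CPM in control and 287 and 30.3 CPM in IWP2. The part that these differences between letters play in the calls was not tested.

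The genes called with the block were spread unevenly over the chromosomes. On chromosome 13, 31 of 683 genes tested rose and 10 fell (6%, against 2.6% over all), and the median log2 fold change there was 0.37. On chromosome 1, 41 rose and 6 fell of 1064 (4.42%), with a median of 0.10. The medians of the other autosomes and of chromosome X lay between -0.09 and 0.12.

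A ribosomal protein gene and a pseudogene of another were much higher in the IWP2 line, and both were chosen after their values were seen. Rpl34 was at 14.6 and 13.6 CPM in control and 118 and 262 CPM in IWP2, and the pseudogene Rpl15-ps3 at 1.56 and 0 CPM against 179 and 275 CPM. Rpl15-ps3 was at 197 and 279 CPM in the line after removal. Such genes have near-identical copies, so the assignment of their reads is uncertain. Zc3h11a, a symbol that 2 overlapping gene models share, had the largest ratio between the IWP2 libraries among those averaging 20 CPM or more: 1 model was at 1.31 and 48.3 CPM there and at 102 and 21.7 CPM in control.

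Other genes that rose in both letters with the block were Col4a6, a basement membrane collagen (2.01 and 1.85 against 20.8 and 11.6 CPM), Palmd, palmdelphin (5.58 and 4.27 against 36.3 and 25.7 CPM), and Hrk, an activator of apoptosis (1.01 and 3.70 against 5.64 and 22.6 CPM). Among those that fell were Gna14, a G protein subunit (12.2 and 4.21 against 1.48 and 0.415 CPM), and Mmp25, a membrane-bound protease (21.2 and 9.56 against 4.73 and 1.96 CPM). These were chosen after their values were seen.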
